A study of Mus musculus with 3 samples.

Results

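The regions described here were open in the PDGFB-WT and Control libraries of a mouse glioma series but absent from the peak list of the PDGFB-NLS library. Overlapping peaks of the 3 deposited lists on chromosomes 1 to 19, X and Y were merged wherever they shared at least 1 bp, and a merged region was kept if it held a PDGFB-WT peak and a Control peak and no PDGFB-NLS peak. This gave 732 members among 147229 merged regions and among 48182 regions called in both PDGFB-WT and Control, a share of 1.52% (95% exact binomial interval 1.41 to 1.63). The other 47450 of those regions were called in all 3 libraries and are the ones the members are set beside. The members were chosen by the peak calls of the 3 libraries, which follow from their counts, so those calls and the levels behind them are described and not tested.

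PDGFB-WT was overexpressed in the first group, PDGFB-NLS in the second, and Control is the third, with 1 library each, so no difference between them has a replicate check. All of them carry the label glioma, come from piggyBac in utero electroporation of mice, and were made from extracted nuclei with version 2 of the single-cell ATAC kit of 10x Genomics (Next GEM). What NLS stands for was left as the labels give it, and they do not make clear whether Control is a tumor. The labels give no age, strain, promoter of the transgene or number of pooled animals for these groups.

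In ATAC-seq, the transposase Tn5 cuts DNA that is not wrapped in nucleosomes or packed into heterochromatin, so a peak marks an open promoter, enhancer or other accessible element. Promoters rich in CpG, the dinucleotide that is often methylated where chromatin is closed, are open in most cell types, while enhancers and CpG-poor promoters open in particular cell types. PDGFB is a growth factor that signals through PDGF receptors, is studied as a driver of glioma in mice, and is the factor named in the labels of both overexpression libraries. A region missing from a peak list was not called there, which leaves its count in that library unknown.

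Most members lay away from gene ends, but 36 complete promoter windows of RefSeq (250 bases before to 50 after a gene's start, build GRCm38.p6) fell inside 30 members. The sequences below were chosen after their values were seen, to show the span from the strongest members, which hold CpG-rich starts, to weak ones with few or no CpG. They run 5′ to 3′ on the gene's own strand, with each CpG in capitals.

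Cryzl1 (chr16:91728753-91729052, minus strand): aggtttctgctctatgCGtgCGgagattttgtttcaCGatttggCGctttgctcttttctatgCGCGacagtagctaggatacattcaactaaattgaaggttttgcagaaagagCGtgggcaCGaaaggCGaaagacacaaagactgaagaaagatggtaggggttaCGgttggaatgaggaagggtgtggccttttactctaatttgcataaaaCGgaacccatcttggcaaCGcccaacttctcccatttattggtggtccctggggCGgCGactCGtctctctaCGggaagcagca
Itsn1 (chr16:91729121-91729420, plus strand): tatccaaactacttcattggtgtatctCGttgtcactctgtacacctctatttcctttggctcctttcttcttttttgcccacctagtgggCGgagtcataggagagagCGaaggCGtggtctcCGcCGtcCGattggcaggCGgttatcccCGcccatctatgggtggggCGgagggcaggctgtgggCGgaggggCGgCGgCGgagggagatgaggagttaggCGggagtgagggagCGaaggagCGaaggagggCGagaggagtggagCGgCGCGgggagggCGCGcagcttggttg
Zzz3 (chr3:152395753-152396052, plus strand): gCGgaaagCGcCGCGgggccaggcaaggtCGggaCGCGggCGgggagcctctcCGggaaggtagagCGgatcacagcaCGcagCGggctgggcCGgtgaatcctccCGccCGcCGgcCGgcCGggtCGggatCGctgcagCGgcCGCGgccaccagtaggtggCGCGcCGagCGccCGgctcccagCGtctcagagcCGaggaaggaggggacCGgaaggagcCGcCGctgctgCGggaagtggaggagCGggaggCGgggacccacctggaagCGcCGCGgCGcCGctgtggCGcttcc
Dlx2 (chr2:71546705-71547004, minus strand): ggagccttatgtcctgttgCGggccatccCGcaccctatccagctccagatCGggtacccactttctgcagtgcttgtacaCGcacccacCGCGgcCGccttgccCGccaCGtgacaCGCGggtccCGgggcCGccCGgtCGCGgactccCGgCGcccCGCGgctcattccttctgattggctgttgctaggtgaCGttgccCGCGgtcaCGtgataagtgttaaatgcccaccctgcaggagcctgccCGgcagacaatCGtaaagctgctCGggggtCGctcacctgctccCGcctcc
Emcn (chr3:137340828-137341127, plus strand): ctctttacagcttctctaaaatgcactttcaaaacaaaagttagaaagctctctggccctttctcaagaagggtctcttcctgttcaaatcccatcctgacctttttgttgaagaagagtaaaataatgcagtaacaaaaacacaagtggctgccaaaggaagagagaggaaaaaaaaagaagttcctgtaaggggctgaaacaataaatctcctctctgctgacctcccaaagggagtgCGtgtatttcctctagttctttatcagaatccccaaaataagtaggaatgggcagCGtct
Gm30613 (chr5:15605070-15605369, minus strand): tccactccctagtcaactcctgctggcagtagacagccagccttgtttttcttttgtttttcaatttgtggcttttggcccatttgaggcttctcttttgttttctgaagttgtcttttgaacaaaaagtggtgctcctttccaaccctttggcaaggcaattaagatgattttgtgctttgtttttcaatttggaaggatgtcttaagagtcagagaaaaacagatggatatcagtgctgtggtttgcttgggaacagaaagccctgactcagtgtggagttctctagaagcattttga

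Cryzl1, which encodes a quinone oxidoreductase-like protein, and Itsn1, which encodes a scaffold of endocytosis, start on opposite strands inside the strongest member, and their windows hold 16 and 23 CpG. The window of Zzz3, a subunit of a histone acetyltransferase complex, holds 42, and that of the interneuron transcription factor Dlx2 holds 29. The start of Emcn, an endothelial sialomucin, has 2, and that of Gm30613, a long noncoding RNA close to the spermatogenesis gene Speer4d, has 0. Windows inside the 11 members with a mean CPM of at least 10 held 15 to 56 CpG with a median of 31, and those inside the 19 weaker members held 0 to 29 with a median of 3.5. The median was 12.5 over all 36 member windows, 22 over the 12618 windows inside regions called in all 3 libraries, and 7 over all 32851 windows. CPM here is the count scaled to a total of 1000000 over the regions called in all 3 libraries.

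Short motifs were looked for on both strands of the same windows. The GC box GGGCGG stood in 47.2% of member windows, 67.3% of windows called in all 3 libraries and 35.7% of all windows. The CCAAT box (CCAAT) stood in 19.4%, 38.7% and 37.4% of them in that order, and the ETS motif CCGGAAG in 5.56%, 18.4% and 8.86%. The AP-1 motif TGANTCA, in which N is any base, stood in 13.9% of member windows, 4.37% of windows called in all 3 and 7.81% of all windows. The TATA box TATAAA gave 8.33%, 5.85% and 13.6%, the YY1 motif AAGATGGC 2.78%, 4.63% and 2.75%, and the palindromic NRF1 motif 0%, 2.27% and 0.971%. With 36 member windows, each match is 2.78% of them, and a match is a string of letters and not a bound site.

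The libraries differed widely in depth. Over barcodes with at least 200 counts, PDGFB-WT had 7441 barcodes with 7008951 counts in 57616 peaks, PDGFB-NLS had 10996 barcodes with 31177621 counts in 127094 peaks, and Control had 2226 barcodes with 31588784 counts in 107627 peaks. The median barcode held 821 counts in PDGFB-WT, 2767.5 in PDGFB-NLS and 13054 in Control. PDGFB-WT and PDGFB-NLS shared 118 barcodes, PDGFB-WT and Control 22, and PDGFB-NLS and Control 45. The PDGFB-NLS list was the longest and still lacked the members, yet of the shares of pairwise regions missing from the remaining list theirs was the smallest. It was 1.52% for the members, against 5.96% of the 50459 PDGFB-NLS and PDGFB-WT regions that had no Control peak and 48.2% of the 91588 PDGFB-NLS and Control regions that had no PDGFB-WT peak. These shares move with the lengths of the lists, and with each list at its 50000 strongest peaks they were 5.66%, 10.0% and 19.3% in the same order.

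The members were mostly weak peaks. Their median count was 29 in PDGFB-WT and 49 in Control, where regions called in all 3 libraries had 80 in PDGFB-WT and 264 in Control. Ranked by counts per kb, the median member stood at percentile 15.6 of the PDGFB-WT regions and 12.9 of the Control regions, and the median region called in all 3 at 57.9 in PDGFB-WT and 75.0 in Control. When all regions called in PDGFB-WT and Control were ordered by mean CPM and split into 10 deciles, the weakest decile held 505 of the 732 members, which was 10.5% of its 4819 regions. The strongest decile held 6 members, or 0.125% of it. A member was therefore typically a region near the floor of both lists, with a minority of strong ones.

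**Figure D1:**
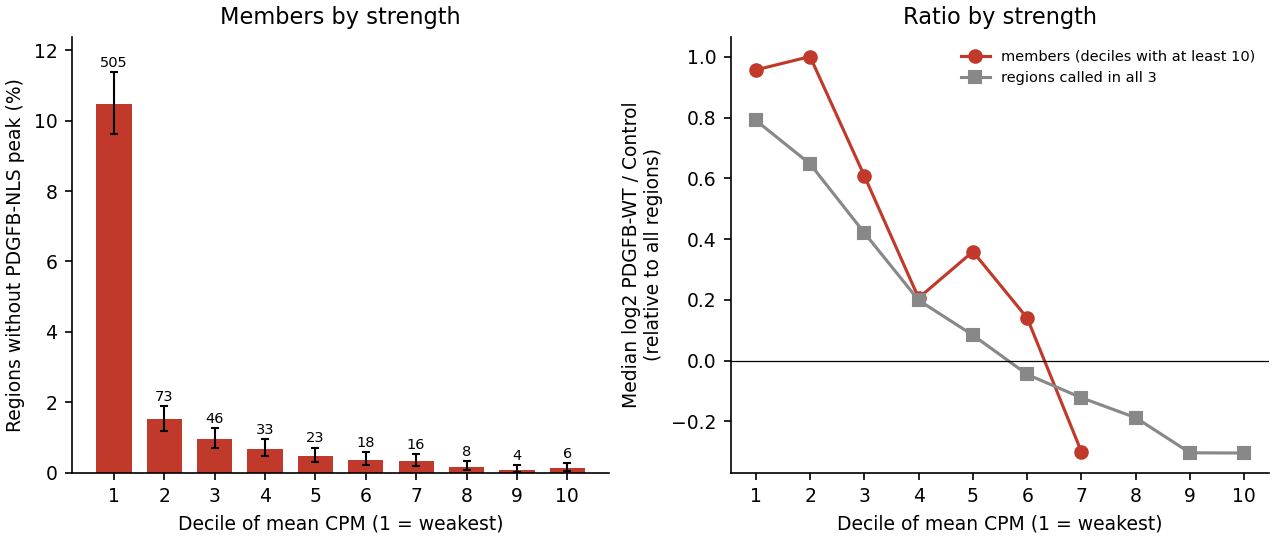
Members by strength. Left: percent of regions called in PDGFB-WT and Control that lack a PDGFB-NLS peak in each decile of mean CPM, with exact 95% binomial intervals and the number of members above each bar; the weakest decile holds 505. Right: median log2 ratio of PDGFB-WT over Control, relative to the median of all regions called in both, for members in deciles with at least 10 of them and for regions called in all 3. The line of regions called in all 3 falls at every step. That of members ends lower than it starts, with rises from decile 1 to 2 and from 4 to 5.

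The strongest members included promoters of broadly used genes. All coordinates are those of the files, in mm10. The shared start of Cryzl1 and Itsn1 (chr16:91728537-91729542) held 1053 counts in PDGFB-WT and 4949 in Control, 156 CPM against 192 CPM, at percentile 99.7 in PDGFB-WT and 99.9 in Control. The Zzz3 promoter (chr3:152395680-152396789) held 706 counts in PDGFB-WT and 1908 in Control, 105 CPM against 74.0 CPM. Of the 10 members with the highest mean CPM, 8 lay within 1000 bp of a gene end, the position called gene end from here on. The gene table gives no strand, so a gene end can be either its start or its last base.

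The rest of these 10 include genes of transcription, chromatin, cell death and RNA. Maco1, which encodes an endoplasmic reticulum membrane protein, at chr4:134853206-134853679 held 413 counts in PDGFB-WT and 1645 in Control, and Fam53c held 389 in PDGFB-WT and 1254 in Control. The transcription factor gene Rfx7 held 319 in PDGFB-WT and 1508 in Control. Tdrd3, a Tudor domain scaffold protein, held 307 in PDGFB-WT and 629 in Control. All of these lay at gene ends and in decile 9 or 10 of mean CPM. A member inside Nfix, a nuclear factor I transcription factor gene, held 292 counts in PDGFB-WT and 694 in Control. Kmt2c, a histone H3 lysine 4 methyltransferase gene (chr5:25497570-25499240), held 266 in PDGFB-WT and 1694 in Control at its end. A member inside Cflar, an inhibitor of death receptor signalling, held 240 in PDGFB-WT and 1079 in Control. The end of the RNA helicase gene Ddx5 held 226 in PDGFB-WT and 762 in Control. Among the 10, PDGFB-WT was above the median ratio of all regions in 5 and below it in 5.

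These strong members differed in how far the next PDGFB-NLS peak lay. For 5 of the 10 a PDGFB-NLS peak lay within 1000 bp, at 7 bp from Maco1, 32 bp from Kmt2c, 79 bp from Tdrd3, 512 bp from Cflar and 725 bp from Rfx7. For the other 5 none lay within 2000 bp, and the next one stood 2217 bp from Fam53c, 3454 bp from Nfix, 3633 bp from the Cryzl1 and Itsn1 start, 5227 bp from Zzz3 and 7149 bp from Ddx5. Where a peak did lie next to the member, its level in PDGFB-NLS was close to that in Control. The region 7 bp from the Maco1 member was called in all 3 libraries, at 56.5 CPM in PDGFB-WT, 74.2 CPM in PDGFB-NLS and 78.9 CPM in Control. Beside Kmt2c it had 68.3 CPM in PDGFB-WT, 76.2 CPM in PDGFB-NLS and 77.7 CPM in Control, and beside Tdrd3 53.5 CPM in PDGFB-WT, 61.3 CPM in PDGFB-NLS and 63.8 CPM in Control. At these genes the locus was therefore open in PDGFB-NLS within 100 bp of the member. Beside the Zzz3 member the next PDGFB-NLS peak was weaker, with 8.02 CPM in PDGFB-NLS and 6.40 CPM in Control, and no PDGFB-WT call.

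Over all members, the next PDGFB-NLS peak lay a median of 4147.5 bp away (quartiles 672.75 and 12778 bp), and for 152 (20.8%) it was within 500 bp. Of these 152, 108 had a neighbouring region called in all 3 libraries, whose median was 17.0 CPM in PDGFB-WT, 18.9 CPM in PDGFB-NLS and 16.3 CPM in Control. Relative to the median of all regions called in all 3, the log2 ratio of PDGFB-NLS over Control in those neighbours had a median of 0.01. Nearest to the threshold of the rule, 9 members had a PDGFB-NLS peak within 10 bp, with medians of 9.34 CPM in PDGFB-WT and 8.11 CPM in Control, the closest being 1 bp from a member inside the receptor gene Notch1. On its other side, 0 regions called in all 3 had PDGFB-NLS peaks that shared at most 50 bp with a PDGFB-WT or Control peak, and 2 shared at most 100 bp. Members close to a PDGFB-NLS peak were stronger, with medians of 6.59 CPM in PDGFB-WT and 4.52 CPM in Control within 500 bp, and 4.0 CPM in PDGFB-WT and 1.71 CPM in Control beyond it.

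In a wider neighbourhood the median ratio of PDGFB-NLS over Control was near that of all regions, while strongly lower regions made up a larger share than among all regions. The 2302 regions called in all 3 libraries within 50 kb of a member had a median log2 ratio of PDGFB-NLS over Control of -0.05 relative to all such regions, with quartiles of -0.24 and 0.22. Of them, 1.87% were at least 2-fold below the median, where 0.98% of all 47450 regions were, and 4.21% were at least 2-fold above it, where 5.98% of all were. Within 10 kb, 4.15% of 603 such regions were at least 2-fold below the median and 3.81% at least 2-fold above it. For 132 members no such region lay within 50 kb.

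Between the libraries in which they were called, members had a higher CPM in PDGFB-WT. The median was 4.30 CPM in PDGFB-WT and 1.90 CPM in Control. Each library's count covers its own peaks in the region, so the PDGFB-WT and Control counts of a member can cover different bases. The log2 ratio of PDGFB-WT over Control, given relative to the median of all regions called in both libraries (0.14), had a median of 0.86 in members and -0.01 in regions called in all 3. At least 2-fold above that median were 305 members (41.7%), where 16.2% of all regions called in both were, and at least 2-fold below it were 9 members (1.23%), where 3.92% of all were. Weak regions called in all 3 also had a higher ratio. In the weakest decile the median was 0.96 in members and 0.79 in regions called in all 3, and 46.7% of those members and 39.8% of those regions were at least 2-fold above. With at least 50 counts required in both libraries, 142 members remained and their median was 0.42. Whether PDGFB-WT differed from Control beyond the spread of animals cannot be said with 1 library each.

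**Figure D2:**
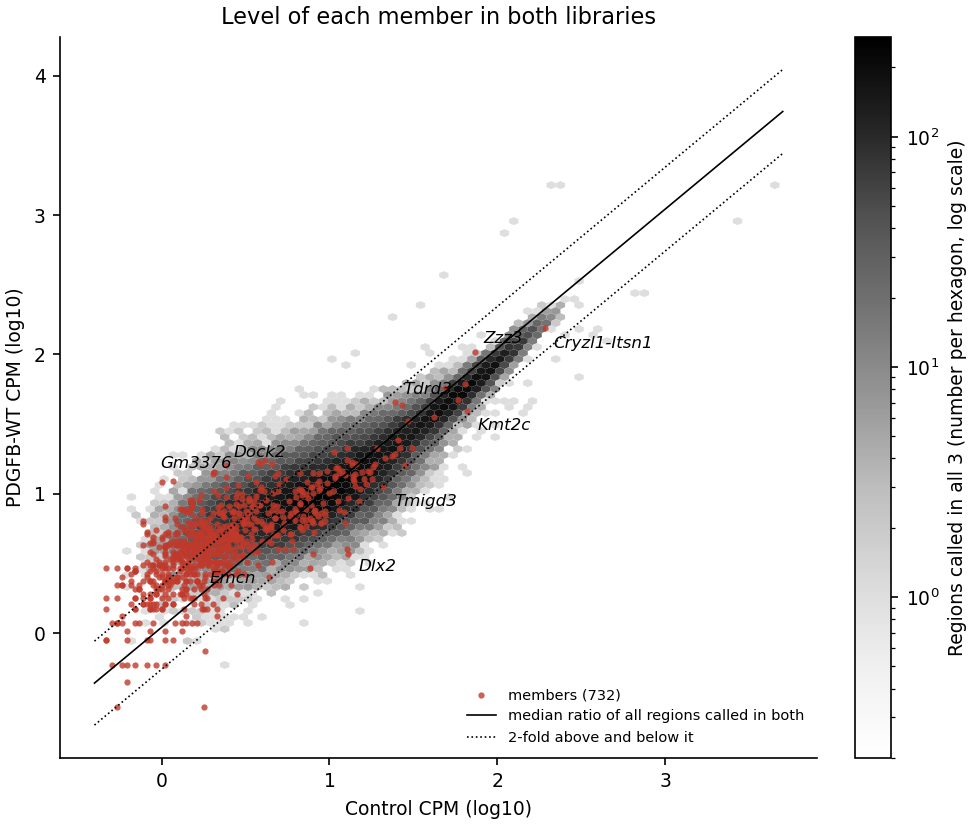
Level of each of the 732 members in PDGFB-WT (vertical) and Control (horizontal), as log10 CPM, over the density of regions called in all 3 libraries. The solid line is the median ratio of all regions called in both and the dotted lines lie 2-fold above and below it; most members sit at the low end and above the solid line, and the promoters of Cryzl1 and Itsn1, Zzz3 and Kmt2c stand at the high end.

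The members with the highest ratio, among those with at least 50 counts in both libraries, were not at gene ends. A pair close to the assembled start of chromosome 9 (chr9:3004157-3005084 and chr9:3015096-3015996), whose nearest protein-coding gene is the tRNA methyltransferase gene Alkbh8 over 300 kb away (330146 bp and 319234 bp), had 97 counts in PDGFB-WT against 53 in Control, and 94 in PDGFB-WT against 52 in Control. Their log2 ratios were 2.66 (95% exact interval on fragments 1.95 to 3.36) and 2.65 (1.89 to 3.34). Here and below the ratio of a region is by counts and its interval by fragments, so the interval need not be centred on the ratio. The regions called in all 3 libraries beside this pair went the same way, with 12.2 CPM in PDGFB-WT, 0.896 CPM in PDGFB-NLS and 2.09 CPM in Control next to the first. Next to the second they were 26.4 CPM in PDGFB-WT, 0.977 CPM in PDGFB-NLS and 3.18 CPM in Control. PDGFB-NLS was the lowest of the 3 in both. Whether reads of this pair also map to other places was not tested. An unnamed cluster of shallow PDGFB-WT barcodes, described below, held 73.2% and 72.3% of the pair's PDGFB-WT counts, and 6.95% of all counts.

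A member inside Dock2 (chr11:34681512-34682423), a Rac activator of blood cells, had 108 counts in PDGFB-WT and 62 in Control, a log2 ratio of 2.59 (1.84 to 3.10). A member inside the Arf regulator gene Asap1 had 89 in PDGFB-WT and 62 in Control (2.31), one 29106 bp from Plekhg6 had 71 in PDGFB-WT and 53 in Control (2.21), and one near Ccdc34 had 74 in PDGFB-WT and 62 in Control (2.05). All 6 had more counts in PDGFB-WT, the library with 7008951 counts, than in Control, the library with 31588784. The same shallow cluster held 54.6% of the Dock2 member's PDGFB-WT counts. The Asap1, Plekhg6 and Ccdc34 members had 93.3%, 80.3% and 73.0% of theirs in the largest PDGFB-WT cluster, which held 80.8% of all counts.

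The low ratios given here, among members with at least 50 counts in both libraries, belonged to members at gene ends or inside genes. Without that minimum the lowest log2 ratio was -2.73 outside genes, -1.95 at gene ends and -1.52 inside gene bodies. A member in Tmigd3 (chr3:105891854-105892825), at the locus of the adenosine receptor gene Adora3, had 75 counts in PDGFB-WT and 540 in Control, a log2 ratio of -1.06 (-1.56 to -0.58). The end of Smad1, which carries BMP signals, had 60 in PDGFB-WT and 384 in Control (-0.89). Kmt2c had -0.88, Nckap5l -0.87 and the transporter gene Abcc5 -0.71. Each of these 5 had a PDGFB-NLS peak within 1000 bp, between 32 bp (Kmt2c) and 933 bp (Abcc5). Beside Smad1 that region had 35.4 CPM in PDGFB-WT, 27.9 CPM in PDGFB-NLS and 28.2 CPM in Control, so chromatin next to this gene end was open in all 3.

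Members were less often at gene ends than regions called in all 3. Within 1000 bp of a protein-coding gene's end lay 97 members, 13.3% (10.9 to 15.9), against 28.0% of regions called in all 3. Inside gene bodies lay 325, 44.4% (40.8 to 48.1), against 39.7%, and outside genes 310, 42.3% (38.7 to 46.0), against 32.3%. More than 100 kb from any protein-coding gene lay 80, 10.9% (8.76 to 13.4), against 5.77%. In the weakest decile of mean CPM the shares were near each other, with 4.95% of members and 5.89% of regions called in all 3 at gene ends. From the second to the eighth decile members were at gene ends more often, for example 28.3% of members and 9.83% of regions called in all 3 in decile 3. The intervals cover counting error only.

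The nearest protein-coding genes numbered 667, and most were nearest to a single member. The genes with at least 3 members were Alkbh8 and Cwc22 with 6 each, and 1600014C10Rik, Gm21149, Dock2, Zfp978 and Tcf4 with 3 each. Cwc22 encodes a splicing factor and Tcf4 a basic helix-loop-helix transcription factor. Of the 34 regions called in PDGFB-WT and Control whose nearest gene is Tcf4, 8.82% were members, and of the 13 nearest to Cwc22, 46.2% were. Members of Alkbh8 and Cwc22 had median log2 ratios of PDGFB-WT over Control of 2.26 and 2.40, and those of Tcf4 0.13. How uniquely reads map at the Alkbh8 and Cwc22 members was not tested.

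By chromosome, the share of PDGFB-WT and Control regions that were members ran from 1.03% on chromosome 15 (21 of 2032) to 1.85% on chromosome 12 (37 of 1997) among the autosomes. Chromosome X had a higher share than any autosome with 27 of 976, 2.77% (1.83 to 4.0), and 22 of those 27 were in the weakest decile of mean CPM. Chromosome Y had 1 member among 12 regions, 8.33% (0.211 to 38.5). That member (chrY:4149773-4150670), 366501 bp from Gm3376, had 84 counts in PDGFB-WT and 30 in Control, a log2 ratio of 3.28 (2.38 to 4.22), with the next PDGFB-NLS peak 38361350 bp away. The unnamed cluster of shallow PDGFB-WT barcodes held 73.8% of this member's PDGFB-WT counts, and 6.95% of all counts. Whether reads of this member map elsewhere as well was not tested. The chromosome Y member was the farthest of all members from a PDGFB-NLS peak, followed by one on chromosome X near Btbd35f25 at 4073128 bp (36 counts in PDGFB-WT and 39 in Control). Next came members in the immunoglobulin heavy chain locus Igh at 717625 bp (11 in PDGFB-WT and 27 in Control), far from the protocadherin gene Pcdh7 at 651414 bp (32 in PDGFB-WT and 45 in Control) and near the milk casein gene Csn2 at 589969 bp (18 in PDGFB-WT and 28 in Control). None of these 5 lay at a gene end.

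**Figure D3:**
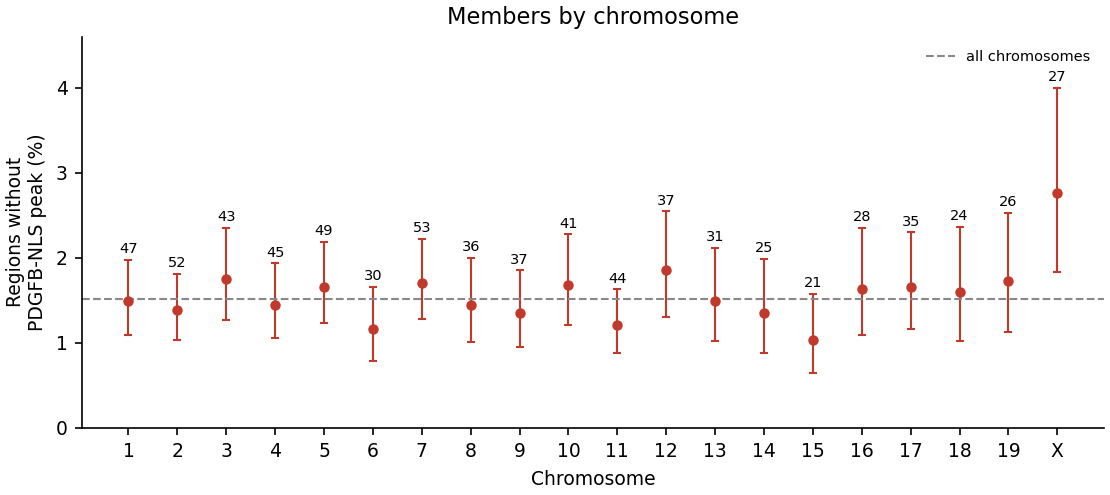
Members by chromosome. Points give the percent of regions called in PDGFB-WT and Control that lack a PDGFB-NLS peak, bars the exact 95% binomial interval, and the numbers over the bars count the members; the dashed line is the share over all chromosomes, 1.52%. Chromosome X, with 27 members, stands highest of those drawn at 2.77%, and chromosome Y, with 12 regions, is not drawn.

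Members also followed each other in runs. In 5 places at least 3 neighbouring regions called in PDGFB-WT and Control were all members, 20 members in total. On chromosome 2, 5 members lay within 32454 bp (chr2:77994796-78027249), the nearest of them 48439 bp from Cwc22. They had 53 to 64 counts in PDGFB-WT and 27 to 62 in Control, and log2 ratios of 1.84 to 2.82. Together they held 288 counts in PDGFB-WT and 201 in Control. The span held 5 PDGFB-WT peaks, 2 PDGFB-NLS peaks and 6 Control peaks, so PDGFB-NLS chromatin there was open at other positions.

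The run with most members was on chromosome 5, with 6 members within 527732 bp (chr5:14955885-15483616) near Gm10354, Gm17019 and Gm21149 and the pseudogene Speer8-ps1. The span held 19 PDGFB-WT peaks, 0 PDGFB-NLS peaks and 6 Control peaks. Its members had 10 to 21 counts in PDGFB-WT and 16 to 38 in Control, 108 counts in PDGFB-WT and 153 in Control together. Nearby but outside the run, the member that holds the printed Gm30613 start (chr5:15605048-15605961) had 29 counts in PDGFB-WT and 49 in Control.

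**Figure D4:**
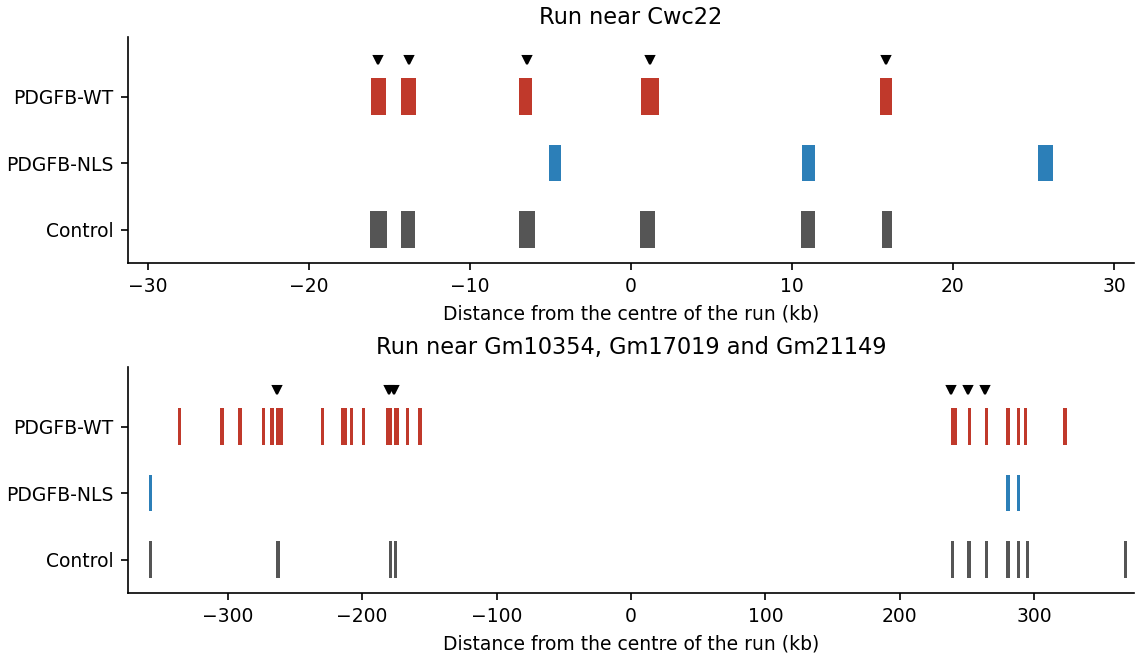
Peaks of the PDGFB-WT, PDGFB-NLS and Control lists in and around 2 runs, by distance from the centre of the run in kb; triangles mark the members and narrow peaks are widened to stay visible. Near Cwc22 the PDGFB-NLS list has peaks that lie between members, and in the run of 6 members it has 0 within the span.

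On chromosome 10, 3 members within 8737 bp (chr10:58223614-58232350) overlapped Duxf3, a copy of the Dux transcription factor gene that is known for activating genes of the early embryo, and LOC100504180. They had 30, 30 and 36 counts in PDGFB-WT and 42, 49 and 28 in Control, and the span held 6 PDGFB-WT peaks, 0 PDGFB-NLS peaks and 3 Control peaks. The next PDGFB-NLS peak lay 22678 bp to the right, in a region with 41.2 CPM in PDGFB-WT, 43.6 CPM in PDGFB-NLS and 47.8 CPM in Control. On chromosome 4, 3 members near the zinc finger genes Zfp978, Zfp982 and Zfp985 had 81 counts in PDGFB-WT and 74 in Control together, in a span of 171364 bp with 1 PDGFB-NLS peak. The run on chromosome 3, near its assembled start and with Hnf4g and Zfhx4 as nearest genes, had 55 counts in PDGFB-WT and 59 in Control over 3 members. Its span of 1796792 bp held 6 PDGFB-NLS peaks, and the next one to its right lay 20 bp away. The Dux, Speer and zinc finger genes belong to families of near-identical copies, and the segment with Cwc22 is known to vary in copy number among mouse strains. Reads from copies cannot be told apart here, so the counts of these runs are uncertain.

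Genes of PDGF signalling and chromosome segregation were nearest to 1 member each, and the other gene lists to 0 to 7 each. The 9 gene lists, of 1688 symbols with 1682 found in the gene table, were the nearest genes of 19 members, 2.19% of the 869 regions called in PDGFB-WT and Control that they were nearest to, where 1.52% of all such regions were members. The PDGF and receptor signalling list had 1 member among 205 regions (0.488%), chromosome segregation, cohesin and condensin 1 among 99 (1.01%), DNA damage and p53 1 among 41 (2.44%), and chromatin regulators and IDH 4 among 141 (2.84%). Synapse and axon guidance had 7 among 218 (3.21%), olfactory and vomeronasal receptors 4 among 101 (3.96%), imprinted genes 1 among 46 (2.17%), and HOX genes 0 among 18. These are counts of 0 to 7, read against 1.52%. The Y-linked list was nearest to 0 of the regions called in both libraries, so it has no share.

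The PDGF list's member lay at an end of Pdgfc (chr3:81037167-81037803), a ligand of the PDGF receptors. It had 66 counts in PDGFB-WT and 178 in Control, a log2 ratio of 0.36 (-0.07 to 1.04) and a PDGFB-NLS peak 5 bp away. That neighbour had 11.9 CPM in PDGFB-WT, 13.1 CPM in PDGFB-NLS and 13.1 CPM in Control, so the locus was called open in all 3. The end of Atrx, a chromatin remodeller whose loss accompanies mutant IDH in many human gliomas, had 47 counts in PDGFB-WT and 221 in Control (-0.44), with a PDGFB-NLS peak 46 bp away. A second member inside Kmt2c had 25 in PDGFB-WT and 31 in Control, and one inside Tet3, which oxidises methylated cytosine, had 29 in PDGFB-WT and 89 in Control. Among synapse and axon guidance genes, members inside Robo2 (a Slit receptor), Syt1 (the calcium sensor of transmitter release) and Pcdh9 (a protocadherin) had 33, 27 and 21 counts in PDGFB-WT and 42, 59 and 30 in Control.

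The share of members near markers of cell types was close to that over all regions. The 12 marker lists were nearest to 12 members among 692 regions, 1.73%, against 1.52% of all regions called in PDGFB-WT and Control, and the oligodendrocyte precursor (OPC), lymphocyte, ependymal and erythroid lists had 0. Endothelial markers had 3 members among 57 regions (5.26%, against the same 1.52%), among them the Emcn start printed above, 21 counts in PDGFB-WT and 43 in Control, and one inside the VEGF receptor gene Flt1 with 30 in PDGFB-WT and 49 in Control. Dlx2 (chr2:71545952-71547033), a marker of inhibitory neurons, had 25 counts in PDGFB-WT and 334 in Control, a log2 ratio of -1.95 (-2.46 to -0.93), and a PDGFB-NLS peak 674 bp away that had 8.18 CPM in PDGFB-NLS and 7.29 CPM in Control. Members also lay at the astrocyte marker Atp1b2 (76 counts in PDGFB-WT and 204 in Control), the microglia or macrophage marker Ly86 (34 in PDGFB-WT and 128 in Control), the oligodendrocyte marker Fa2h (30 in PDGFB-WT and 115 in Control), the excitatory neuron marker Rorb (20 in PDGFB-WT and 14 in Control) and the mural or fibroblast marker Anpep (20 in PDGFB-WT and 41 in Control). No marker list contributed more than 3 members.

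Per barcode, members were rarely hit. The median member had a count in 0.215% of PDGFB-WT barcodes and 1.03% of Control barcodes, against 0.551% of PDGFB-WT barcodes and 5.30% of Control barcodes for regions called in all 3. Members held 30083 counts in PDGFB-WT, 0.429% of that library, and 76992 in Control, 0.244%. Their share was highest in shallow barcodes. From the shallowest to the deepest quartile of barcodes it was 0.748%, 0.464%, 0.395% and 0.378% in PDGFB-WT and 0.297%, 0.291%, 0.248% and 0.220% in Control.

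Barcodes were clustered in each library without the member peaks, and in both libraries a cluster with fewer counts per barcode than the library held more of the member counts than of all counts. In PDGFB-WT at resolution 0.6 it had 13.0% of barcodes with a median of 399 counts, 6.95% of all counts and 17.6% of member counts, a ratio of 2.53. In Control a cluster of this kind stood apart at resolution 1.0 only, with 7.50% of barcodes with a median of 6766 counts, 3.69% of all counts and 9.54% of member counts, a ratio of 2.58. Both were led by Cldn34d, Zfp978, Chl1, 4931408C20Rik and LOC100504180, and neither could be named from the cell type markers. Weak regions called in all 3 were raised in them to a like degree, with ratios of 2.26 in PDGFB-WT and 2.68 in Control for the weakest decile. The 20 members in runs were raised most, 6.98 times in PDGFB-WT on 305 counts and 17.6 times in Control on 393 counts, and members at gene ends least, 1.35 times in PDGFB-WT and 1.25 times in Control. The leading genes were ranked on all peaks in or within 2 kb of a gene, and member peaks were left out of the clustering only. LOC100504180 and Zfp978 are nearest genes of members in runs, and 4931408C20Rik is the nearest gene of 2 members. Duxf3 and Tmem267, also nearest genes of members, were among the leading genes in PDGFB-WT. The place of these genes is therefore not independent of the members. In PDGFB-NLS the highest ratio for weak regions called in all 3 was 1.36 at resolution 0.6 and 1.40 at 1.0. These regions were ranked by their PDGFB-WT and Control levels, and members have no PDGFB-NLS peak to count. Whether PDGFB-NLS holds a cluster of this kind can therefore not be said from these ratios. The part of low depth and of these clusters in the choice of members was not tested.

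In the named clusters, the share of member counts, pooled over members, was close to or below the share of all counts. Single members could differ from the pool. In Control at resolution 0.6 the microglia or macrophage-like cluster held 36.3% of all counts. It held 90.2% of the Tmigd3 member's counts and 33.5% of those of the Cryzl1 and Itsn1 start. Such shares were not computed for single regions called in all 3. At resolution 1.0 in PDGFB-WT the ratio was 0.752 in the OPC-like cluster and 0.871 and 0.905 in the microglia or macrophage-like ones. In Control it was 0.768 and 0.824 in the endothelial-like clusters, 0.830 in the oligodendrocyte-like, 0.954 and 0.916 in the microglia or macrophage-like, 1.06 in the mural or fibroblast-like and 0.894 in the OPC-like cluster. No named cluster was above 1.06 at this resolution, and at 0.6 the Control endothelial-like cluster that takes in the low-count barcodes had 1.37. The Control and PDGFB-WT clusters whose best list was the astrocyte one stayed unnamed under the naming rule. In Control their ratio was 1.17 at 1.0 and 1.18 at 0.6, where weak regions called in all 3 had 1.42 and 1.43. In PDGFB-WT it was 0.967 and 1.13 at 1.0, and 1.05 at 0.6. With the barcodes of the clusters rich in weak regions left out (948 in PDGFB-WT and 167 in Control, an alternative chosen after seeing the data), the median log2 ratio of PDGFB-WT over Control in members was 0.86, as with all barcodes, and that of the 20 members in runs was 2.59 against 1.85 with all. The left-out clusters held 187 and 112 counts of these 20 members in PDGFB-WT and 393 in Control. No remaining Control cluster held more than 48, so the value of 2.59 rests on few Control counts.

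**Figure D5:**
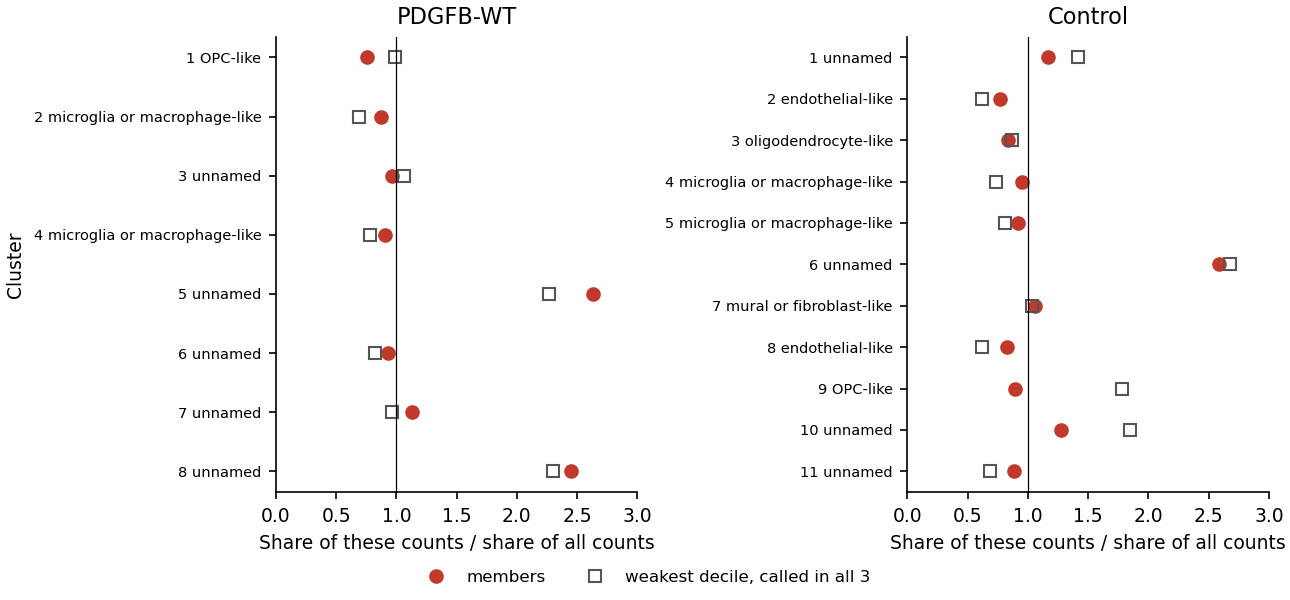
Share of member counts over share of all counts in each cluster at resolution 1.0, in PDGFB-WT (left) and Control (right), with the same ratio for the weakest decile of regions called in all 3 as open squares; the line marks a ratio of 1. Clusters 5 and 8 of PDGFB-WT and cluster 6 of Control lie above 2 on both measures.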

How the data were processed

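Nuclei of 3 libraries, grouped by their titles, were profiled by single-cell ATAC-seq. The authors deposited unnormalized counts for every peak in every barcode, written by cellranger-atac 2.1.0 per the file headers. Cell Ranger 8 and mm10 are named in the submitters' processing notes. Each library came with a peak list of its own, and how the caller was set is not given. Since most values were even, as for cut sites, fragments were taken as (v + 1) // 2 of a value v.

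Barcodes under 200 counts were left out, and doublets were not removed. Peaks of the 3 lists were merged with Python 3.11.15 and pandas 2.3.3 at 1 bp of overlap. A region's count in a library is the sum over that library's own peaks in it, and counts per kb use the merged width. CPM was scaled to counts in regions called in all 3 libraries, and ratios were set against the median of regions called in PDGFB-WT and Control. Intervals are exact 95% binomial (Clopper-Pearson, SciPy 1.17.1). For ratios of single regions they belong to the ratio by fragments, while the ratio printed is by counts. They cover counting error only, since fragments of 1 library are not independent animals. Merging and ratios were tested on simulated data. Genes (21887 protein-coding) were placed with RefSeq positions on GRCm38.p6, which is mm10. No genome was used. No region was left out for repeats or for reads that map to several places.

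Regions named are the 10 with the highest mean CPM, the 6 highest and 6 lowest ratios among members with at least 50 counts in both, the 5 farthest from a PDGFB-NLS peak, runs of at least 3, and up to 3 per list within 1000 bp of its gene. Of these, 1 region is not reported here. The members and lists were chosen with earlier results of these data known. Barcodes were clustered per library (latent components 2 to 30, 15 neighbours, leidenalg 0.10.2, resolution 0.6 and 1.0). Cluster names, whose thresholds were set after seeing the data, needed at least 3 detected markers, a median log2 fold of at least 0.5, and either 1.0 or an own marker among the top 10 genes. A cluster stayed unnamed where another list had more markers among those 10 genes than its best list. It also stayed unnamed where its counts per barcode were low and no own marker was among those genes.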

Additional observations from a re-analysis of the deposited data

How the results depend on the processing

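The count of 732 members was within 1.5 times under 3 ways of merging (601 to 703), and was 2038 with each list at its 50000 strongest peaks and 1361 with the PDGFB-NLS list at the length of the Control list. With that shortened PDGFB-NLS list, the distance from the original 732 members to the nearest PDGFB-NLS peak was 4956 bp. Peak strength was at percentile 14.8 in PDGFB-WT and 15.7 in Control by counts per region, which turned the order of these libraries (15.6 in PDGFB-WT and 12.9 in Control by counts per kb), and 15.3 in PDGFB-WT and 12.8 in Control over barcodes with at least 1000 counts. The PDGFB-WT over Control ratio of 0.86 was 0.855 by fragments, 0.712 with counts capped to 1 per peak and barcode, 0.463 over barcodes with at least 1000 counts, 0.859 over all barcodes, 0.828 without the deepest 5% and 0.421 for members with at least 50 counts in both libraries. Chosen after seeing the data, it was 0.477 with that minimum applied to all regions as well, and 0.859 without the clusters rich in weak regions. Scaling to all own peaks or per barcode cannot change it, since it is relative to a median. The share at gene ends was 7.10% at 500 bp, 16.8% at 2000 bp and 21.7% over all genes of the table, against 25.1%, 32.4% and 34.9% of regions called in all 3. The PDGFB-NLS level beside members was -0.0552 within 10 kb and -0.0278 within 200 kb. Members had a count in 0.277% of PDGFB-WT and 1.10% of Control barcodes with at least 1000 counts. The highest cluster ratio was 2.63 in PDGFB-WT and 2.58 in Control at resolution 1.0, against 2.53 in PDGFB-WT and 1.37 in Control at 0.6. The causes of these shifts were not tested. No paired analysis was possible because each group has 1 library, which also left no replicate to leave out. Median counts of 29 in PDGFB-WT and 49 in Control bound the precision of a single member's values.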
